A study of Homo sapiens with 6 samples.

Results

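The genes described here are transcriptional targets of the tumor suppressor p53 together with GDF15, a secreted stress cytokine that p53 is also known to induce. A list of 36 gene symbols was fixed with earlier results of these data known. The rows of the deposited signal table with these symbols were taken, and the 3 KO libraries were compared with the 3 VC libraries. All 36 symbols are present among the 54308 genes of the table, and 35 of them had a value in each of the 6 libraries. The exception is TP53AIP1, without a value in KO replicate 2. All libraries came from 143B, an osteosarcoma line. The VC cells had received a vector plasmid, and the paper lists a guide RNA for its negative control plasmid. The KO cells had received a plasmid for CRISPR/Cas9 deletion of CNTNAP4, a neurexin-family transmembrane protein. The methods describe RNA from clonal cells grown after single-cell sorting, whereas the labels describe transient transfection and a shorter time after it, so the state of the cells at extraction is not certain. Each group had 3 biological replicates. The sources used here do not state which clone each replicate came from, so the p-values measure the spread between these RNA samples, and an effect of the deletion cannot be told apart from a difference between clones. The deleted gene, CNTNAP4, was measured in a single library, VC replicate 3, at -7.18, so its level does not check the labels.

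In unstressed cells p53 is held at a low level by MDM2, a ubiquitin ligase that is itself a p53 target, and by its relative MDM4. After DNA damage and other stresses p53 is stabilized and activates genes that stop the cell cycle, repair DNA, trigger cell death or alter metabolism. Several of these genes also respond to other transcription factors without p53, among them GDF15, CDKN1A and GADD45A.

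In bulk RNA, fewer cells of a type and less RNA per cell cannot be told apart. Values are log2 signals, quantile-normalized by the authors between the 6 libraries, and every log2 fold change is KO minus VC, with its standard error (SE). Testing covered the 19306 genes having 2 or more values per group and was done with limma, and p-values were adjusted over all of them by the Benjamini-Hochberg method. A gene is called when its adjusted p is under 0.05. Values of single libraries are given in the order of replicates 1, 2 and 3. Among markers of the labelled cell type, VIM, SPARC, COL1A1, COL1A2, RUNX2 and ALPL had values in all 6 libraries, with COL1A2 at -5.72 to -4.59. BGLAP and SP7, also markers of the osteoblast lineage, had values in 2 and 4. Of markers of other cell types, EPCAM and KRT18 had values in all 6 libraries and CDH1 in 1. The log2 signals of EPCAM were 0.84 to 1.79 and those of KRT18 8.63 to 9.06, and PTPRC, CD3E, PECAM1 and VWF had values of -3.29 or less where they had one. EPCAM was lower in KO (log2 fold change -0.67, SE 0.11, adjusted p = 0.0157), as was COL1A2 (-0.81, adjusted p = 0.0161). COL1A1, SPARC and ALPL were higher (0.33, 0.37 and 0.58, adjusted p = 0.0309, 0.0213 and 0.0202). The other tested markers were not called. The part of these changes in the results below was not tested.

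The p53 targets did not move as a block. Of the 36 genes, 9 rose and 8 fell in KO, and 19 were not called. Called genes made up 47.2% of the p53 targets and 32.9% of all genes tested. For genes called higher the shares were 25.0% and 13.1%, and for genes called lower they were 22.2% and 19.8%. The median log2 fold change was -0.086 over the 36 genes and -0.13 over all genes tested. The groups did not overlap in 25 of the 36 genes, 10 higher and 15 lower in KO, against 57.1% of all genes tested, 21.5% higher and 35.6% lower. Changes of at least 2-fold with an adjusted p under 0.05 were found in 6 members, with GDF15, CDKN1A and GADD45A higher and TP53AIP1, POLH and ACER2 lower, where 9.53% of all genes tested passed both criteria. Without VC replicate 3, the number called fell to 3 higher and 2 lower, where 6.57% of all genes were called, and without VC replicate 1, VC replicate 2 or KO replicate 3 it was 4 and 3, 4 and 4, and 5 and 2 (7.54%, 13.1% and 10.9% of all genes). At an unadjusted p under 0.05 the targets numbered 9 higher and 13 lower, where 47.9% of all genes passed, and with a replicate block 3 and 5 were called, where 7.94% were.

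**Figure D1:**
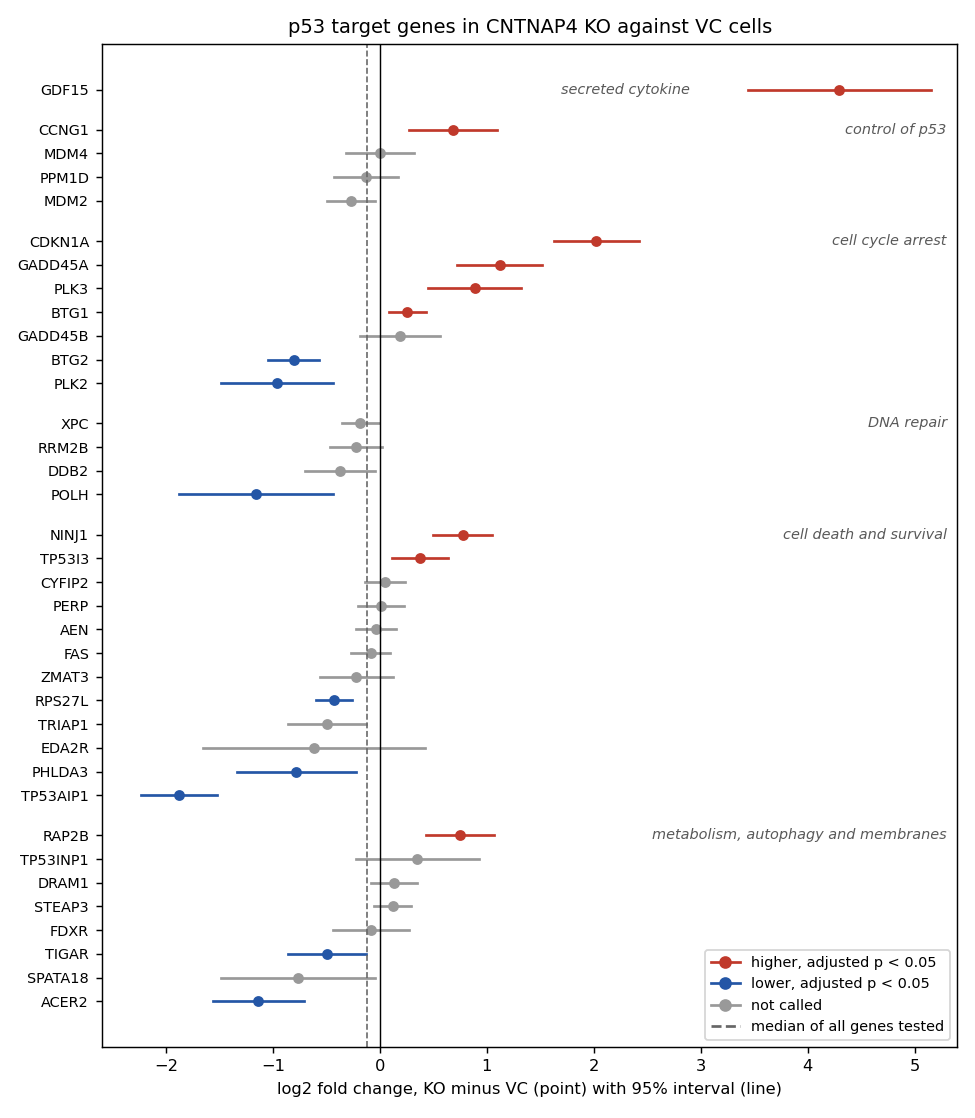
Log2 fold change (KO minus VC, x axis) of the 36 p53 targets, grouped by role, with points for the estimate and lines for limma's 95% interval (3 libraries in each group). Red marks genes called higher, blue genes called lower and grey genes not called. GDF15 at 4.29 and CDKN1A at 2.02 lie farthest to the right and TP53AIP1 at -1.88 farthest to the left, around a median of all genes tested of -0.13 (dashed).

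GDF15, a secreted member of the TGF-beta superfamily, had the largest change of the 36 genes. Its log2 signal was -0.64, -1.38 and -1.15 in VC and 2.68, 3.79 and 3.25 in KO. Every KO library was above every VC library, and the lowest KO value exceeded the highest VC value by more than the range of either group. The mean rose from -1.06 ± 0.38 (SD, n = 3) to 3.24 ± 0.56 (SD, n = 3), a log2 fold change of 4.29 (SE 0.34, adjusted p = 0.00597 by limma) or 19.6-fold on the linear scale. GDF15 was called whichever of the 6 libraries was omitted, and over these fits its log2 fold change lay between 4.02 and 4.58. GFRAL, the ligand-binding chain of the GDF15 receptor, had a value in VC replicate 1 alone. RET, its signaling chain, averaged -5.41 ± 0.25 over the VC libraries and -5.48 ± 0.62 over the KO libraries (SD, n = 3 each, adjusted p = 0.893).

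The 250 bases before the annotated GDF15 start (RefSeq, GRCh38.p14, chr19:18385908-18386157, plus strand) are shown because this gene changed most. Capitals mark TATAAA, which starts 29 bases before the gene's start, and CAGCTG, which starts 114 bases before it.
GDF15: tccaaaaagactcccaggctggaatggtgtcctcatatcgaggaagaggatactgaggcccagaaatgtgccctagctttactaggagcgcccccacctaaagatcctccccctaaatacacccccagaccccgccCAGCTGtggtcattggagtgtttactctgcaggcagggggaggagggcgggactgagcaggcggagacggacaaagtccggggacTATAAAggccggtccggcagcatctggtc
Motifs were searched on both strands, and CAGCTG, an E-box, was chosen after the sequences had been read. TATAAA was found in 10.7% of 35116 RefSeq promoter windows of the same length and CAGCTG in 4911 of them. Among the 32 targets with a promoter entry, TATAAA was also found for BTG1 and GADD45B, and CAGCTG for CDKN1A, DDB2, MDM2, NINJ1 and PLK3. No match to the stress-response element TGATGNAA, the AP-1 motif TGANTCA, the cyclic AMP element TGACGTCA or the p53 half-site motif was found in this window of GDF15, which says only that these letters are not in it. GADD45A, PHLDA3, RRM2B and TP53INP1 had no entry.

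CDKN1A encodes p21, the cyclin-dependent kinase inhibitor that arrests the cell cycle downstream of p53, and it had the next largest rise. Its log2 signal was 3.87, 3.74 and 3.85 in VC and 5.63, 6.17 and 5.74 in KO. The groups were separated by far more than their ranges. The log2 fold change was 2.02 (SE 0.16, adjusted p = 0.00597), or 4.07-fold, and CDKN1A was called whichever of the 6 libraries was omitted. The promoter window of CDKN1A (RefSeq, GRCh38.p14, chr6:36678464-36678713, plus strand) is given for comparison with that of GDF15, with CAGCTG in capitals, 148 bases before the start.
CDKN1A: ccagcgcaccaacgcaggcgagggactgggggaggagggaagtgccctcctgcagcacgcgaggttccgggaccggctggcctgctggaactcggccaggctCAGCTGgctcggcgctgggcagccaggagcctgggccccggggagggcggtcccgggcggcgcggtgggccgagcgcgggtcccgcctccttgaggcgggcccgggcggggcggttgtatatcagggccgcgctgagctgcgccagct

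The other 6 genes of cell cycle arrest divided between the directions, with 3 called higher and 2 called lower. With CDKN1A, 57.1% of the 7 genes were called higher and 28.6% lower, against 13.1% and 19.8% of all genes tested. GADD45A, which slows the transition from G2 to mitosis and takes part in stress kinase signaling, had log2 signals of 5.12, 5.10 and 4.98 in VC and 6.02, 6.51 and 6.02 in KO. Its log2 fold change was 1.12 (SE 0.16, adjusted p = 0.0117), and it was called in 5 of 6 fits with a library omitted (adjusted p = 0.0502 without VC replicate 3). GADD45B, its relative, had log2 signals of 3.78, 3.89 and 3.71 in VC and 4.07, 4.19 and 3.70 in KO, so that KO replicate 3 lay at the level of the VC libraries. The 95% interval of its log2 fold change was -0.18 to 0.56 (adjusted p = 0.355).

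The polo-like kinases PLK2 and PLK3, which are stress-responsive relatives of the mitotic kinase PLK1, moved in opposite directions. PLK3 had log2 signals of 1.95, 1.92 and 1.999 in VC and 2.77, 3.20 and 2.56 in KO, a log2 fold change of 0.89 (SE 0.17, adjusted p = 0.0205). PLK2 had log2 signals of 2.82, 2.80 and 2.77 in VC and 2.26, 1.47 and 1.78 in KO, a log2 fold change of -0.96 (SE 0.21, adjusted p = 0.0259). In each gene the VC values lay within a narrow band and the KO values were spread. PLK3 was called in 3 of 6 fits with a library omitted and PLK2 in 2.

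BTG1 and BTG2 are antiproliferative proteins that bind the CCR4-NOT deadenylase, and they too moved in opposite directions. BTG2 had log2 signals of 0.47, 0.49 and 0.52 in VC and -0.16, -0.45 and -0.33 in KO, a log2 fold change of -0.81 (SE 0.094, adjusted p = 0.0095), and was called whichever of the 6 libraries was omitted. BTG1 had log2 signals of 3.76, 3.72 and 3.64 in VC and 3.97, 3.99 and 3.94 in KO. Its rise of 0.26 (SE 0.067, adjusted p = 0.0389) was small, with no overlap of the groups, and was called in 1 of 6 fits with a library omitted. Exons of BTG1, CDKN1A, PLK3, MDM2, DRAM1, CYFIP2 and STEAP3 overlap a gene on the opposite strand and those of PHLDA3, MDM2 and BTG1 one on the same strand, and the sources used here do not say whether reads were assigned by strand.

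Differences between related genes were taken within each library, so that the gene-specific scale drops out of the contrast between groups. PLK3 minus PLK2 was -0.87, -0.88 and -0.77 in VC and 0.51, 1.73 and 0.78 in KO, a rise of 1.85. Only the shift between groups can be read, not the sign of a difference, since the scale may differ between genes. BTG1 minus BTG2 rose by 1.06, from 3.22 ± 0.081 to 4.28 ± 0.15 (SD, n = 3), and GADD45A minus GADD45B rose by 0.93, from 1.28 ± 0.065 to 2.20 ± 0.21 (SD, n = 3). MDM2 minus MDM4 fell by 0.27, from 0.54 ± 0.035 to 0.27 ± 0.11 (SD, n = 3). The 4 pairs were chosen after the values of their genes had been seen, so the shifts are a description with no test.

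**Figure D2:**
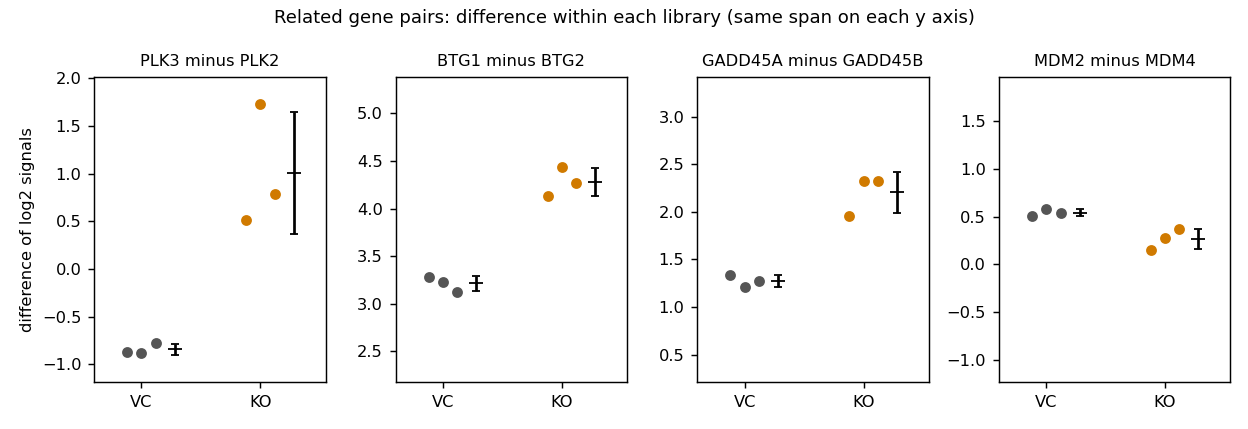
Difference of log2 signals (y axis, the same span in each panel) between related genes within each library of VC (grey) and KO (orange), with the mean and SD of 3 libraries in black. PLK3 minus PLK2 shifts most, by 1.85, and MDM2 minus MDM4 shifts downward.

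Of the 4 genes that control p53 or its phosphorylation, CCNG1 alone was called (25.0%, against 32.9% of all genes tested). CCNG1 encodes cyclin G1, which recruits a phosphatase to MDM2, and had log2 signals of 3.87, 3.9955 and 3.89 in VC and 4.28, 4.87 and 4.66 in KO. Its log2 fold change was 0.69 (SE 0.16, adjusted p = 0.0313), with the smallest rise in KO replicate 1, and it was called in 1 of 6 fits with a library omitted. MDM2 had log2 signals of 1.74, 1.81 and 1.67 in VC and 1.597, 1.42 and 1.39 in KO. All KO values of MDM2 lay under the VC values by a small distance, and the 95% interval of the log2 fold change was -0.49 to -0.05 before adjustment (adjusted p = 0.0669). MDM2 was called lower without KO replicate 1 (adjusted p = 0.0234) and with trend and robust moderation (adjusted p = 0.0488). It was also called with 1 added to the linear signal (adjusted p = 0.0325) and among genes in the upper 50% of mean signal (adjusted p = 0.0222). MDM4 had an interval of -0.31 to 0.32 (adjusted p = 0.982). PPM1D, the phosphatase also named WIP1 that removes activating phosphates from p53, had one of -0.43 to 0.17 (adjusted p = 0.415).

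All 4 DNA repair genes had lower values in each KO library than in any VC library, as did 35.6% of all genes tested, and 1 of the 4 was called (25.0%, against 32.9% of all genes). POLH, the translesion polymerase that copies past ultraviolet lesions, had log2 signals of 0.79, 0.80 and 0.79 in VC and 0.16, -0.96 and -0.29 in KO. The VC libraries were nearly identical and the KO libraries spread over more than a log2 unit. The log2 fold change of POLH was -1.16 (SE 0.29, adjusted p = 0.0344), and it was called in 2 of 6 fits with a library omitted. DDB2 and XPC, which recognize lesions in nucleotide excision repair, had log2 fold changes of -0.38 (adjusted p = 0.0765) and -0.18 (adjusted p = 0.0947). Exons of XPC overlap those of LSM3 on the opposite strand. RRM2B, the p53-induced subunit of ribonucleotide reductase, had -0.22 (adjusted p = 0.13). RRM2B lies on chromosome 8, whose other 635 tested genes had a median of -0.32 on the same scale.

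Of 12 genes of cell death and survival, 2 rose, 3 fell and 7 were not called. The shares of 16.7% higher and 25.0% lower were near the 13.1% and 19.8% of all genes tested. NINJ1, which drives rupture of the plasma membrane in dying cells, had log2 signals of 2.14, 1.91 and 2.15 in VC and 2.76, 2.98 and 2.78 in KO. Its log2 fold change of 0.77 (SE 0.11, adjusted p = 0.0118) was called whichever of the 6 libraries was omitted. TP53I3, an oxidoreductase also named PIG3, had log2 signals of 0.55, 0.27 and 0.56 in VC and 0.87, 0.82 and 0.78 in KO. The separation of TP53I3 was narrow, and its log2 fold change of 0.37 (SE 0.10, adjusted p = 0.0453) lost its call whichever of the 6 libraries was omitted. Exons of TP53I3 overlap those of FAM228B on the opposite strand.

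Among the genes that fell, PHLDA3, an inhibitor of AKT at the membrane, had log2 signals of 0.18, -0.32 and -0.06 in VC and -0.56, -1.24 and -0.75 in KO. Its log2 fold change was -0.78 (SE 0.22, adjusted p = 0.0469), and it was called in 1 of 6 fits with a library omitted. RPS27L, a ribosomal protein paralog, had 1.98, 1.99 and 1.98 in VC and 1.63, 1.51 and 1.53 in KO. The VC spread of RPS27L was small (SD 0.0045, n = 3), and its log2 fold change of -0.43 (SE 0.068, adjusted p = 0.014) was called in 3 of 6 fits with a library omitted. TP53AIP1, a mitochondrial apoptosis protein, was near the lower end of the table, with -6.98, -7.31 and -7.05 in VC and -9.00 and -8.98 in KO, where replicate 2 had none (log2 fold change -1.88, SE 0.13, adjusted p = 0.00789). TP53AIP1 lost its call when 1 was added to linear signals, with a log2 fold change of -0.0076 (adjusted p = 0.835).

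The death receptor FAS, which p53 classically induces, was not called. Its log2 signal was -1.53, -1.67 and -1.68 in VC and -1.72, -1.73 and -1.69 in KO, the groups were apart by a narrow gap, and the 95% interval of the log2 fold change was -0.27 to 0.10 (adjusted p = 0.391). AEN, an apoptosis-enhancing nuclease, PERP, a desmosome protein, and CYFIP2, a component of the WAVE complex, had intervals of -0.22 to 0.15, -0.20 to 0.23 and -0.14 to 0.23. The RNA-binding protein ZMAT3 had -0.56 to 0.12, and the ectodysplasin receptor EDA2R had a wide interval of -1.66 to 0.42. TRIAP1, an inhibitor of apoptosome formation, missed the threshold with a log2 fold change of -0.50 (SE 0.14, adjusted p = 0.0507) with the KO values all below those of VC. In several alternative fits TRIAP1 was called lower, among them trend and robust moderation (adjusted p = 0.0162) and the fit without KO replicate 1 (adjusted p = 0.0177).

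Of the 8 genes of metabolism, autophagy and membranes, 1 rose and 2 fell (12.5% and 25.0%, near the 13.1% and 19.8% of all genes tested). RAP2B, a RAS-related GTPase, had log2 signals of 3.39, 3.24 and 3.34 in VC and 3.84, 4.25 and 4.12 in KO, a log2 fold change of 0.75 (SE 0.13, adjusted p = 0.0156). ACER2, a Golgi ceramidase that produces sphingosine, had 0.01, -0.28 and -0.18 in VC and -1.10, -1.61 and -1.16 in KO, a log2 fold change of -1.14 (SE 0.17, adjusted p = 0.0128). ACER2 was called in 5 of 6 fits with a library omitted and RAP2B in 2. TIGAR, a phosphatase that diverts glucose from glycolysis, had 1.83, 1.99 and 1.74 in VC and 1.59, 1.13 and 1.35 in KO. Its log2 fold change of -0.50 (SE 0.14) had an adjusted p of 0.0496 and was called in 1 of 6 fits with a library omitted. It was not called after centring of the libraries, and exons of TIGAR overlap another annotated gene on the same strand.

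The remaining genes of that group were not called. SPATA18, a mediator of mitochondrial quality control, had lower values in every KO library (log2 fold change -0.77, SE 0.29, adjusted p = 0.0906). STEAP3, a ferrireductase, had higher values in every KO library, with an interval of -0.05 to 0.29. DRAM1, a lysosomal regulator of autophagy, and FDXR, a mitochondrial reductase, had intervals of -0.09 to 0.35 and -0.44 to 0.27. TP53INP1, a regulator of autophagy and of p53 phosphorylation, had log2 signals of -1.37, -1.28 and -1.17 in VC and -1.42, -0.70 and -0.65 in KO (adjusted p = 0.28). KO replicate 1 of TP53INP1 thus lay under all VC values while the other KO replicates lay above them. TP53INP1 lies on chromosome 8 like RRM2B, and its log2 fold change was 0.35 as measured and 0.67 relative to the median of the chromosome's other genes.

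**Figure D3:**
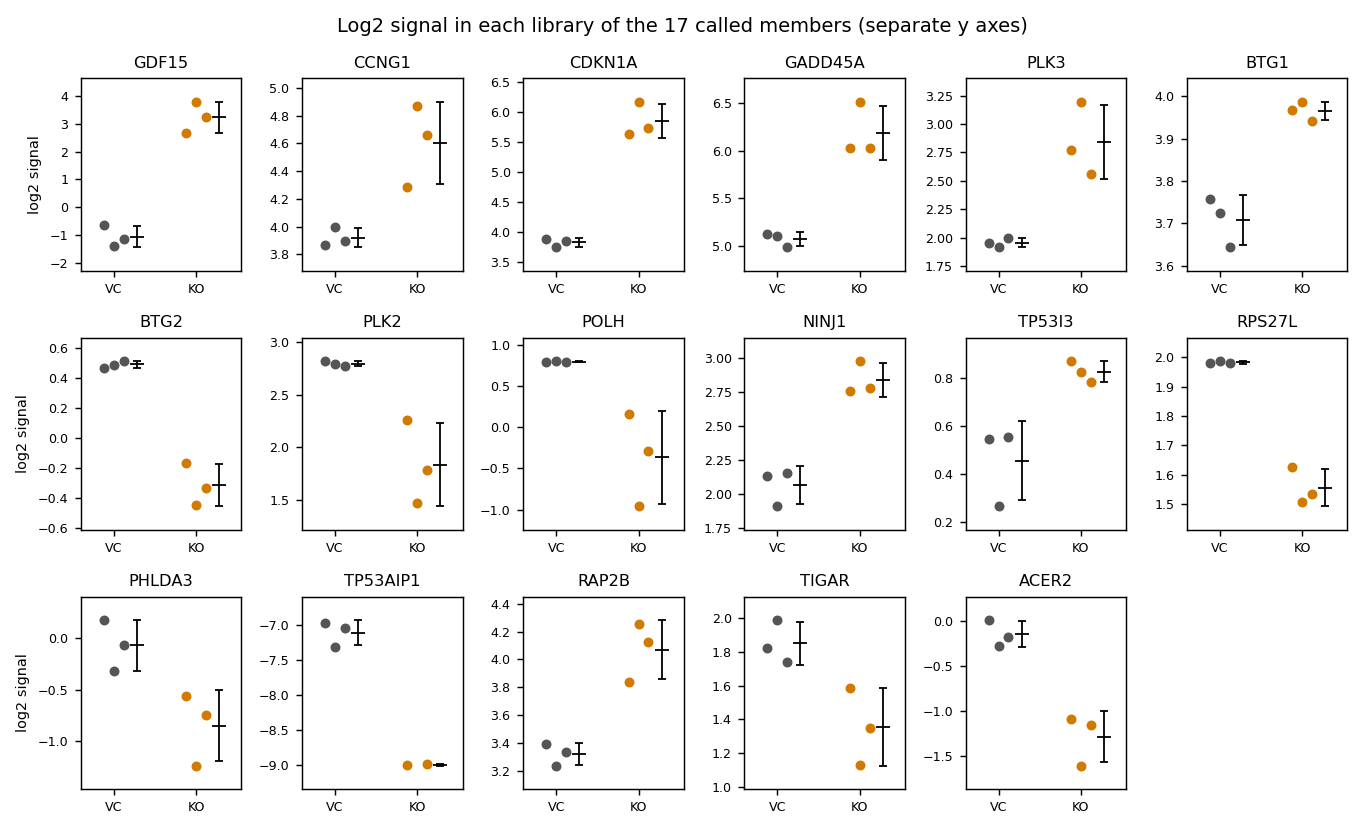
Log2 signal (y axis, a separate scale for each gene) in the VC (grey) and KO (orange) libraries of the 17 called p53 targets, with the mean and SD of each group in black. In each panel the KO points lie on one side of the VC points, and TP53AIP1 has 2 KO points.

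Promoter windows of 3 called genes are shown because they hold the p53 half-site, the decamer bound by a p53 dimer, searched on both strands without mismatches. The capitals mark it, and it starts 61, 132 and 59 bases before the start of RAP2B (chr3:153161976-153162225, plus strand), PLK2 (chr5:58460087-58460336, minus strand) and RPS27L (chr15:63157478-63157727, minus strand), from RefSeq on GRCh38.p14.
RAP2B: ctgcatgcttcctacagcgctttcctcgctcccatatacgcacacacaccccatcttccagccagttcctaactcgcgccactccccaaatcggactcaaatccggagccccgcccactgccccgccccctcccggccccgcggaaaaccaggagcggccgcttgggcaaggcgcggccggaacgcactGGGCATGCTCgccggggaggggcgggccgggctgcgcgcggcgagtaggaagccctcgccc
PLK2: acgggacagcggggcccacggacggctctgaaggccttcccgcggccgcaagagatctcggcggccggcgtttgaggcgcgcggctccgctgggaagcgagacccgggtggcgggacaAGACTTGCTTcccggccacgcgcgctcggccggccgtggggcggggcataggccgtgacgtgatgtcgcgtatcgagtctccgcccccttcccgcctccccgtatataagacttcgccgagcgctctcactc
RPS27L: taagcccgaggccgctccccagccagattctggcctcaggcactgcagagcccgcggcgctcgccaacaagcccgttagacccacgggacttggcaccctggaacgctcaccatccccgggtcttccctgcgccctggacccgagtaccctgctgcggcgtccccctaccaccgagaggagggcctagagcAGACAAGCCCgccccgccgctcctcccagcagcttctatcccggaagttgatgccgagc
RAP2B rose in KO and PLK2 and RPS27L fell, so called genes with this match went in both directions. The other genes with a match, AEN, FAS and FDXR, were not called. A match was present for 6 of the 32 targets with a promoter entry and in 5.57% of all 35116 windows, and some genes have several entries. A full p53 site pairs such decamers and often lies outside this window, so the absence of a match says only that these letters are not in it.

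The KO libraries did not carry the change to the same extent. Among the 16 called genes with a value in every library, KO replicate 2 was farthest from the VC mean in 15 and KO replicate 1 was nearest to it in 12. On the first principal component of the 17698 genes with 6 values, KO replicates 1, 2 and 3 scored 20.8, 73.8 and 48.9 and the VC libraries between -48.4 and -46.7, so this order was not particular to the p53 targets. Without KO replicate 1, 9 targets were called higher and 11 lower, where 47.0% of all genes were called.

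**Figure D4:**
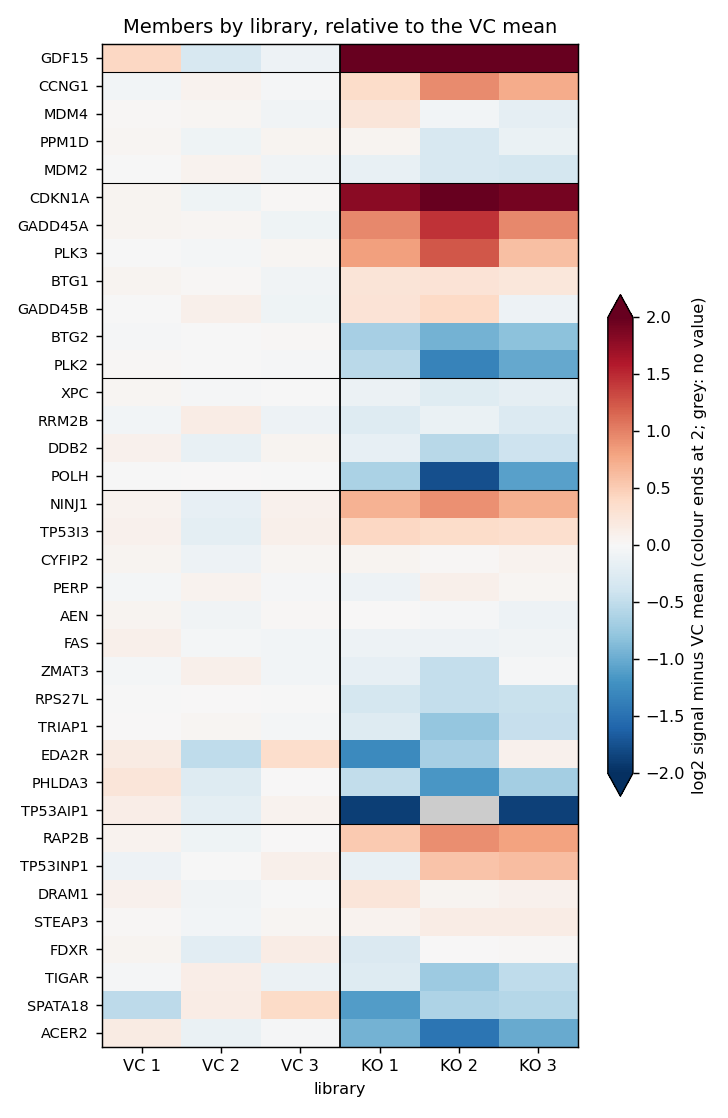
Log2 signal minus the mean of the VC libraries (colour) for the 36 p53 targets (rows, in blocks by role) in the 6 libraries (columns), with red above and blue below the VC mean and grey for no value. GDF15 and CDKN1A are red in all KO columns, and KO replicate 2 holds the deepest colour in most called rows.

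Further genes of the p53 network were taken from lists written from general knowledge. Earlier results of these data were known when the lists were chosen, so their counts are a description with no set test. Of 26 upstream regulators, 24 were tested, 1 rose and 6 fell (29.2% called, median log2 fold change -0.20). Over all genes tested 32.9% were called, with a median of -0.13. By direction, 4.17% of the regulators were called higher and 25.0% lower, against 13.1% and 19.8% of all genes tested. Without any 1 of the VC libraries or KO replicate 3, and with a replicate block, 0 regulators were called higher and 1 lower. Of all genes, 6.57% to 13.1% were called in these fits. Without KO replicate 1, 2 regulators were called higher and 11 lower, where 47.0% of all genes were called. PPP1R13B, also named ASPP1, which steers p53 toward apoptosis genes, had log2 signals of 2.27, 2.18 and 2.29 in VC and 1.62, 1.53 and 1.65 in KO (log2 fold change -0.65, SE 0.0735, adjusted p = 0.00914). PPP1R13B was called whichever of the 6 libraries was omitted, and relative to the median of the other genes of its chromosome, 14, its log2 fold change was -0.26. The DNA damage kinases ATR and ATM had log2 fold changes of -0.62 (SE 0.12, adjusted p = 0.0197) and -0.36 (SE 0.10, adjusted p = 0.0496). The deubiquitinase USP7, which stabilizes MDM2 and p53, had -0.54 (adjusted p = 0.0297), and the acetyltransferase CREBBP had -0.54 (adjusted p = 0.0338). KAT5, the acetyltransferase also named TIP60, was the gene called higher (0.34, adjusted p = 0.024). With a library omitted, ATR, USP7 and KAT5 were each called in 2 of 6 fits and ATM and CREBBP in 1. The p53 relative TP73, named after its values had been seen, had log2 signals of 1.20, 1.12 and 1.18 in VC and 0.74, -0.28 and 0.36 in KO (adjusted p = 0.0527). CDKN2A, whose product ARF inhibits MDM2, had no value in any library, and TP63 had 1 value, in a VC library.

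Of 60 further p53 targets, 58 were tested, 16 rose and 7 fell (39.7% called, 27.6% higher and 12.1% lower, median log2 fold change 0.10). Over all genes tested the shares were 32.9%, 13.1% and 19.8% and the median -0.13. Without VC replicate 1 or VC replicate 3 the counts were 8 and 1 (7.54% and 6.57% of all genes called). They were 10 and 1 without VC replicate 2 (13.1%) and 18 and 15 without KO replicate 1 (47.0%). Without KO replicate 2 or KO replicate 3 they were 11 and 3 (23.6%) and 12 and 2 (10.9%). Moderation with trend and robust estimation gave 20 and 16 (41.0%). With a replicate block they were 7 and 1 (7.94%). Called genes of the apoptosis effectors included BBC3, which encodes the BH3-only protein PUMA. BBC3 had log2 signals of 0.90, 0.40 and 0.69 in VC and 2.93, 3.63 and 2.91 in KO, a log2 fold change of 2.49 (SE 0.25, adjusted p = 0.00789). The cytokine LIF rose from -2.41 ± 0.16 to 1.32 ± 0.43 (SD, n = 3), a log2 fold change of 3.73 (adjusted p = 0.00553). SESN2, a stress-induced inhibitor of mTORC1, rose by 2.92 (SE 0.30, adjusted p = 0.00834), and the transcription factor ATF3 rose by 2.16 (SE 0.29, adjusted p = 0.0107). Each of these was called whichever of the 6 libraries was omitted. SESN2 and ATF3 stand also in the list of stress response genes below. The 7 genes that fell, named here after their values had been seen, were SESN1, BLCAP, CMBL, CROT, PANK1, PIDD1 and TGFA, with log2 fold changes between -1.01 and -0.29. SESN1, a relative of SESN2, had -0.67 (adjusted p = 0.0297) and PIDD1, a death-domain protein, -0.79 (adjusted p = 0.0396), while BLCAP (-0.89, adjusted p = 0.0101) was the one of the 7 called whichever library was omitted. BAX, PMAIP1 and TNFRSF10B were also named after their values had been seen. BAX, the pore-forming effector of mitochondrial apoptosis, had an interval of -0.34 to 0.02 (adjusted p = 0.142), while PMAIP1, which encodes NOXA, rose by 0.60 (adjusted p = 0.0461) and was called in 1 of 6 fits with a library omitted. TNFRSF10B, the TRAIL receptor DR5, had log2 signals between 5.02 and 5.03 in VC and of 5.96, 6.11 and 5.93 in KO (log2 fold change 0.97, SE 0.076, adjusted p = 0.00597).

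Many cell cycle genes are known to be lowered when p21 restores the repressive DREAM complex. Of 16 such genes tested, 0 rose and 14 fell, with a median log2 fold change of -0.63, and all 16 had lower values in each KO library than in any VC library, against 19.8% of all genes called lower and 35.6% lower without overlap. Without VC replicates 1, 2 and 3 in turn, the count of 14 fell to 1, 5 and 0. Of all genes, 7.54%, 13.1% and 6.57% were called in these fits. The count was 4 without KO replicate 3 (10.9% of all genes) and 1, CDC20, with a replicate block (7.94% of all genes). The transcription factor MYBL2 had a log2 fold change of -1.10 (SE 0.20, adjusted p = 0.0178), the checkpoint kinase BUB1 -0.92 (adjusted p = 0.0133), cyclin B1 (CCNB1) -0.80 (adjusted p = 0.0124) and survivin (BIRC5) -0.76 (adjusted p = 0.0151). MYBL2 was called in 2 of 6 fits with a library omitted, BIRC5 in 3, BUB1 in 4 and CCNB1 in 5. Whether these genes fell through p21 was not tested.

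The integrated stress response, in which ATF4 and CHOP (DDIT3) are known to induce GDF15 and BBC3, was represented by 18 genes. Of these, 17 were tested, 16 rose and 1 fell (94.1% and 5.88%, against 13.1% and 19.8% of all genes tested). Their median log2 fold change was 1.61, against -0.13 over all genes tested. With a library omitted 13 to 16 were called higher, where 6.57% to 47.0% of all genes were called in either direction. The gene NUPR1 had values in the 3 KO libraries alone. DDIT3 had log2 signals of 1.47, 1.57 and 1.36 in VC and 5.58, 6.34 and 5.52 in KO, a log2 fold change of 4.34 (SE 0.24, adjusted p = 0.00478). ATF4 had 5.37, 5.35 and 5.35 in VC and 6.46, 6.95 and 6.67 in KO, a log2 fold change of 1.34 (SE 0.14, adjusted p = 0.00815). CHAC1, DDIT4 and ASNS rose by 3.64, 3.42 and 3.03 (adjusted p = 0.00789, 0.00571 and 0.00722). The gene that fell was EIF2AK4, which encodes the amino acid sensing kinase GCN2 (-0.51, adjusted p = 0.0161). EIF2AK4 was called in 2 of 6 fits with a library omitted. EGR1, an immediate early transcription factor that can also induce GDF15, rose by 2.04 (SE 0.22, adjusted p = 0.00874). Whether the rise of GDF15 or CDKN1A followed from any of these factors was not tested.

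**Figure D5:**
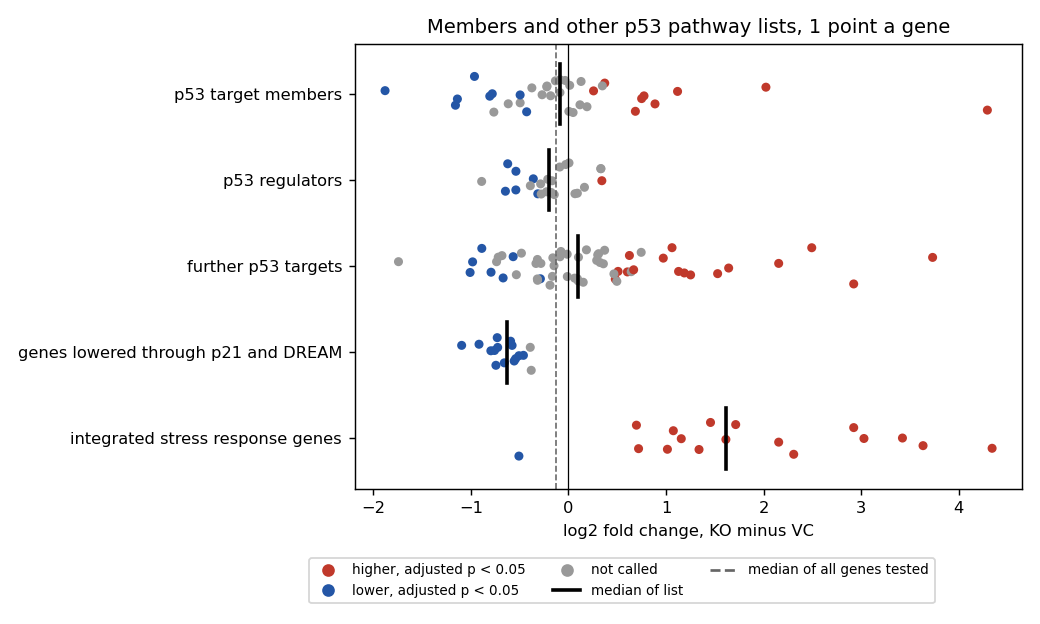
Log2 fold change (KO minus VC, x axis) of each tested gene in the 36 p53 targets and in 4 other lists (rows, with vertical jitter), coloured by call, with the list median in black and the median of all genes tested dashed. The p53 targets scatter to both sides around -0.086, while the stress response genes lie above 0 except for 1 and the cell cycle genes lie below 0.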

How the data were processed

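RNA from 3 VC and 3 CNTNAP4 KO libraries of 143B cells, clonal per the methods, was sequenced, and the libraries were mapped to group and replicate by their titles. The submitters' processing notes name CASAVA, STAR, Partek and GRCh38.p13, and the paper's methods name CLC Genomics software, run as Server and as Workbench, besides Partek. The deposited log2 signals were quantile-normalized by the authors between libraries, with medians of 0.62. The linear unit is not given in the sources used here, so read depth and counting error are unknown and the targets were not ranked by level. Values were present for 20333 to 21041 genes in a library.

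Signals were analysed in R 4.3.3 with limma 3.58.1 (linear model, empirical Bayes moderation without trend), for genes having 2 or more values per group. The 36 targets and all lists were chosen with earlier results of these data known, so no set tests were run. Named list genes are ATM, CDKN2A, DDIT3, ATF4, ATF3 and up to 4 called genes with the largest change in each list whose groups did not overlap, and other names were added after values were seen. A further gene of that rule is not reported here. Intervals are limma's 95% intervals. The test was checked on simulated data. Chromosomes and promoters came from RefSeq (GRCh38.p14) by symbol and exon overlaps from GENCODE release 29. Alternatives were gene filters, median centring, 1 added to the linear signal, moderation, a replicate block, each library left out and other thresholds.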

Additional observations from a re-analysis of the deposited data

How the results depend on the processing

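GDF15 and CDKN1A were called in all 13 alternative fits, BTG2 in all 12 that included it and TP53I3 in 4 of 12. The counts of called genes depended most on the libraries used. With single libraries left out, 1223 to 8669 of all genes, 3 to 9 targets higher and 2 to 11 lower, and 20 to 35 genes of the other lists higher and 2 to 43 lower were called. With a replicate block the counts were 1533 of all genes (7.94%), 3 and 5 targets (GDF15, CDKN1A and GADD45A higher) and 20 and 3 list genes. Same-numbered libraries had correlations of deviations of 0.023, 0.005 and -0.007, so no shared effect of the replicate number was seen. These values cannot tell whether same-numbered samples were prepared together. With the additional 2-fold threshold the counts were 1840 of all genes, 3 and 3 targets and 2 list genes lower. Without variance moderation 4 targets were lower, where 23.0% of all genes were called. At an unadjusted p under 0.05, 13 targets and 43 list genes were lower, and moderation with trend and robust estimation also gave 43 list genes lower. The cause of these moves was not tested. Signs turned only for genes that were not called. AEN had a log2 fold change of 0.0495 with median-centred libraries, where RET had 0.017 (0.0002 with 1 added to the linear signal). With libraries left out, values ran from -0.12 to 0.0945 for MDM4, -0.031 to 0.0728 for PERP, -0.19 to 0.016 for FDXR and -0.40 to 0.21 for RET. The median of all genes tested moved from -0.13 to -0.042 with centring and to -0.023 with 1 added to the linear signal. Read depth is unknown, so no limit for low signals such as TP53AIP1 could be set.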
